A study of Mus musculus with 6 samples.

Results

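The RUNX family genes comprised Runx1, Runx2, Runx3 and Cbfb, and were described by every ATAC-seq peak in the body of each gene or within 100 kb on either side on the mm10 build. In ATAC-seq the transposase Tn5 cuts and tags open DNA, so a peak marks a stretch of accessible chromatin. Peaks from any of the 6 lists were merged into 1 region wherever they met, and 150 of the 236017 regions lay in the 4 gene windows. Of these, 58 lay around Runx1, 35 around Runx2, 31 around Runx3 and 26 around Cbfb. A region counted as called in a library that had a peak sharing at least 1 bp with it.

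The 6 libraries came from naive CD4+CD62L+ T cells of wild-type C57BL/6 mice that were stimulated with anti-CD3 and anti-CD28 and harvested on day 5. Th9 cells were made with IL-4, human IL-2, TGF-β1 and anti-IFNγ, Th2 cells with IL-4, human IL-2 and anti-IFNγ, and Th17 cells with IL-6, TGF-β1, IL-23, IL-1β and antibodies to IFNγ, IL-4 and IL-2. Each subset had 2 libraries, labelled replicates 1 and 3. The labels do not say whether these came from separate mice or cultures, so p-values measure only the spread between these libraries, which may be technical.

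RUNX proteins bind DNA through the Runt domain, and CBFβ, the product of Cbfb, joins them and strengthens that binding without touching DNA itself. Each Runx gene is transcribed from a distal and a proximal promoter, which give proteins with different first residues. Runx1 is known for its part in thymocyte development and Runx3 for silencing Cd4 in CD8 T cells and Il4 in Th1 cells, whereas Runx2 is best known from bone-forming cells.

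The lists held 100317 to 142213 peaks. Background coverage recovered from flat peaks was 5.65 fragments in Th9 replicate 1 and 11.2 to 17.7 in the other libraries, and the lowest fold enrichment that a list held was 2.11 in Th9 replicate 1 and 1.71 to 1.83 elsewhere. A region missing from a list was not called as a peak there and was not shown to be closed. Promoter peaks were found in all 6 libraries at 5 of 6 T cell markers and at 0 of 4 B cell, 0 of 4 myeloid and 0 of 3 erythroid markers, although Cd14 was called in 3 libraries and Hbb-bs in 5. Il9 had promoter peaks at percentiles 88.6 and 90.7 in Th9 and 37.1 and 44.4 in Th2 and none in Th17. Il17f and Il23r had one in Th17 alone, and Il17a in both Th17 libraries and Th2 replicate 3. Of the Th2 markers, Il13 had one in the Th2 libraries alone, Il4 in the Th9 and Th2 libraries and Il5 in all 6, so that Il4 and Il5 did not set Th2 apart.

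The promoters are shown first, because all 3 distal promoters held a RUNX word in the 250 bases before the start and the proximal promoters of Runx1 and Runx3 did not. The word was TGTGGT or TGCGGT on either strand, and its reverse complement ACCACA is in capitals below. Of 32851 RefSeq promoters on GRCm38.p6, 18.6% held at least 1 match in the same stretch and 2.01% held 2 or more. The stretches run 5′ to 3′ on the minus strand for Runx1 (chr16:92826150-92826399) and Runx2 (chr17:44814798-44815047) and on the plus strand for Runx3 (chr4:135120402-135120651).
Runx1 distal: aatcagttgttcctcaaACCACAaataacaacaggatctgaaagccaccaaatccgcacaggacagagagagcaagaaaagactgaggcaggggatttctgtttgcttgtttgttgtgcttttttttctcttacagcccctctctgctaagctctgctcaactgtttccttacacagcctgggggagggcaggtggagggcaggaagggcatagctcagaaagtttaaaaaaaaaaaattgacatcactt
Runx2 distal: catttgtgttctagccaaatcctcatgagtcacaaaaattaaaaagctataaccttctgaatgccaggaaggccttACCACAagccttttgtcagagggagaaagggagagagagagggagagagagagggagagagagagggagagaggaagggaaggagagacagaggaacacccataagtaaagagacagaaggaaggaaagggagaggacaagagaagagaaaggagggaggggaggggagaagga
Runx3 distal: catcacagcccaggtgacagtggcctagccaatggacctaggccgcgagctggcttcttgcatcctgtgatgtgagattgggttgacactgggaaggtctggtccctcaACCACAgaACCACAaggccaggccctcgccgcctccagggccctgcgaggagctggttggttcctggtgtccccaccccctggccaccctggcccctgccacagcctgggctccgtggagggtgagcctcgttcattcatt

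The match began 233 bases before the start in Runx1 and 174 bases before it in Runx2. Runx3 held 2 matches, which began 141 and 133 bases before the start. The proximal promoters of Runx1 and Runx3 and the Cbfb promoter held 0 matches. GC content was 44.8%, 48.4% and 63.6% in the distal promoters of Runx1, Runx2 and Runx3, and 67.2% and 76.0% in the proximal promoters of Runx1 and Runx3. A match is a description of letters and is not a measured binding site.

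The distal promoter of Runx2 was called in 0 of 6 libraries, and the other 6 promoters were called in all 6. A promoter was counted when a peak overlapped the 1000 bp before to 100 bp after an annotated start. Among 21924 protein-coding genes, 58.7% had a promoter peak in all 6 libraries. The nearest peak to the Runx2 distal start at 44814797 lay 2801 bp away in Th2 replicate 1 and 36817 to 36959 bp away in the other 5 libraries. The Runx2 proximal promoter, in contrast, was covered by a peak in every library. Its peak over the start stood at percentiles 84.1 and 77.4 for Th9, 84.1 and 81.8 for Th2 and 84.7 and 83.7 for Th17, where a percentile is the share of peaks of the same list with a lower fold enrichment. In Th2 replicate 1 a neighbouring peak that reached the promoter window was stronger, at 89.7.

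Runx1 was open at both of its promoters. The distal promoter stood at percentiles 83.9 and 82.0 for Th9, 83.8 and 83.8 for Th2 and 87.4 and 82.7 for Th17. The subsets overlapped in this rank, whereas in peak width Th17 stood apart from Th9 and Th2. The peak spanned 6353 and 7124 bp in Th9 and 6783 and 5393 bp in Th2, against 3421 and 3402 bp in Th17. The merged region over this promoter held 3 and 2 peaks in Th17, 1 and 1 in Th9 and 1 and 2 in Th2. Other Th17 peaks thus lay in the same stretch, and the width of 1 peak is not the full open span. No test was made on widths. The proximal promoter stood at 91.6 and 89.2 for Th9, 88.4 and 88.0 for Th2 and 88.1 and 86.1 for Th17, with peaks of 2384 to 2489 bp. A second annotated start of the proximal promoter, at 92696125, was covered in 0 of 6 libraries and lay 494 to 567 bp from the nearest peak.

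Runx3 was likewise open at both promoters in all subsets. Its distal promoter stood at 90.8 and 90.5 for Th9, 89.2 and 90.1 for Th2 and 92.0 and 87.0 for Th17, with peaks of 566 to 1734 bp. Its proximal promoter stood at 87.6 and 86.6 in Th9, above 75.1 and 74.3 in Th2 and 80.5 and 74.9 in Th17, so that the Th9 libraries did not overlap the others. The difference in log2 fold enrichment, Th9 minus Th2, was 0.60 ± 0.19 (SE) and did not pass the test (limma, adjusted p = 0.0947). Against Th17 the difference was 0.43 ± 0.19 (limma, adjusted p = 0.226).

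The Cbfb promoter ranked highest of the 7, at 96.8 and 97.0 for Th9, 97.2 and 95.0 for Th2 and 97.5 and 95.5 for Th17. Its peaks spanned 2333 to 2885 bp in Th9 and Th2 and 1802 and 1932 bp in Th17.

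Across the regions over the 6 called promoters, 0 passed the test in any of the 3 contrasts with limma. A region was tested by its strongest peak, which was not always the peak over the start. At Runx1 distal in Th17 replicate 3 it was another peak, with a fold of 3.92 against 3.71 at the promoter. At Runx2 proximal in Th2 replicate 1 it was the stronger neighbouring peak described above. At an unadjusted p under 0.05, limma gave 1 for Th9 against Th2, 1 for Th9 against Th17 and 0 for Th2 against Th17. The differences ran from -0.22 to 0.60, from -0.20 to 0.43 and from -0.21 to 0.03 on the log2 scale, and the 95% intervals of single promoters reached from -0.62 to 1.01, from -0.59 to 0.83 and from -0.60 to 0.44.

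**Figure D1:**
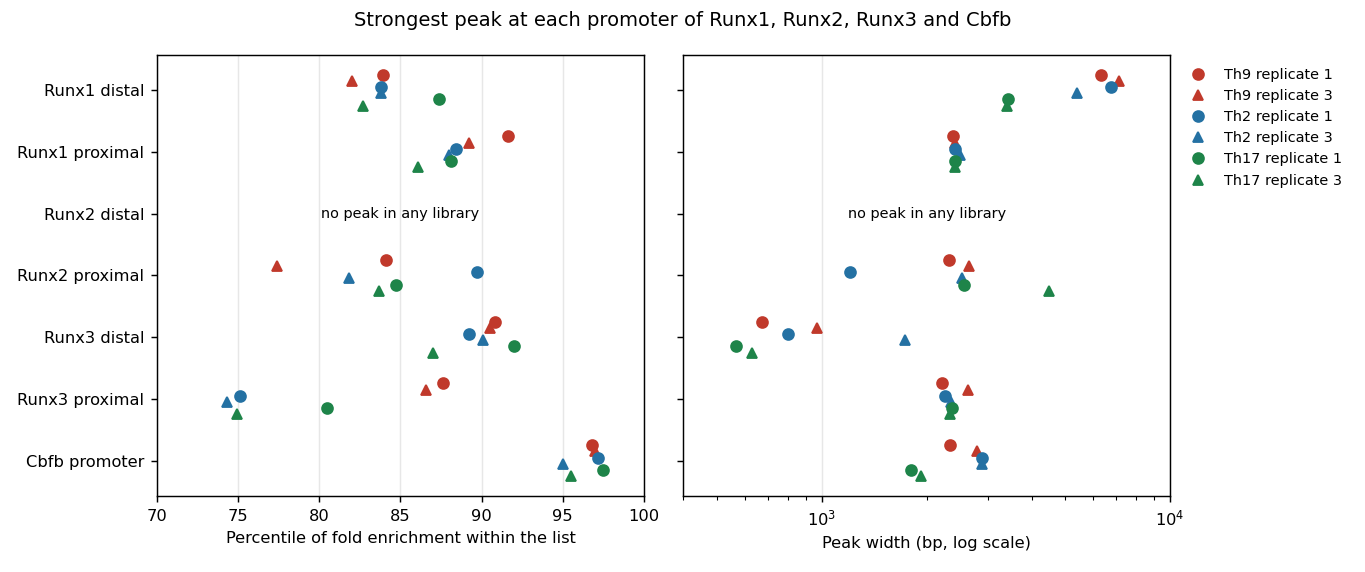
Strongest peak at each of the 7 promoters, with its percentile of fold enrichment within the list at left and its width in bp on a log axis at right. Each point is 1 library, coloured by subset, with circles for replicate 1 and triangles for replicate 3. The Runx2 distal row is empty, the Th9 points of the Runx3 proximal row sit at 87.6 and 86.6 above all others, and the Runx1 distal peak is 3421 and 3402 bp wide in Th17 against 5393 to 7124 bp in the other subsets. Further Th17 peaks in the same Runx1 region are not drawn.

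All 6 libraries called 60 of the 150 regions (40.0%), against 21.4% of all regions. By gene, this held for 20 of 58 regions around Runx1, 14 of 35 around Runx2, 13 of 31 around Runx3 and 13 of 26 around Cbfb. The windows also hold all or part of other coding genes, Clic6 beside Runx1, Supt3 beside Runx2, Clic4 beside Runx3 and 13 genes around Cbfb. Only 3 of the 26 Cbfb regions lay in the body of Cbfb, whereas 36 of 58 lay in the body of Runx1, 28 of 35 in that of Runx2 and 9 of 31 in that of Runx3. Peaks covered 6.80% to 9.99% of the Runx1 window, 3.32% to 4.22% of the Runx2 window, 3.98% to 7.77% of the Runx3 window and 6.56% to 9.92% of the Cbfb window, against 2.96% to 4.31% of the genome.

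**Figure D2:**
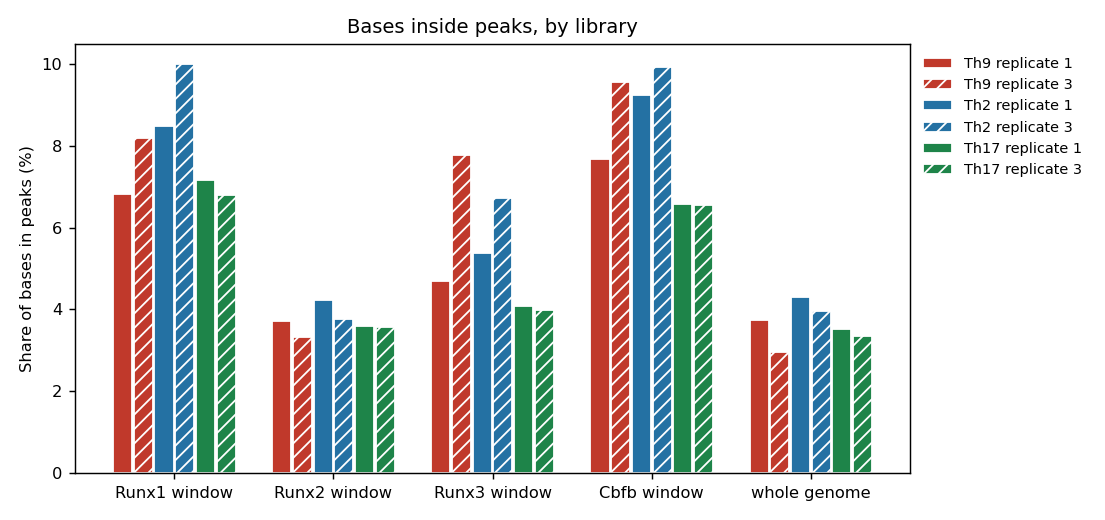
Share of bases inside peaks, in percent, in each gene window and over the whole genome, with 1 bar for each library, solid for replicate 1 and hatched for replicate 3. In the Runx1 and Cbfb windows all 6 bars stand above 6.5%, and in the Runx2 window they run from 3.32% to 4.22%, beside 2.96% to 4.31% for the genome.

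The Runx2 window held the most regions whose calls split by subset. Regions called in both libraries of 1 subset or of a pair of subsets, and in no other library, numbered 9 of 35 around Runx2, 6 of 58 around Runx1, 2 of 26 around Cbfb and 1 of 31 around Runx3. Over all regions the share was 9.74%. By pattern, 3 of the 150 regions were of Th9 alone (1.31% of all regions), 5 of Th2 alone (2.87%), 6 of Th17 alone (1.70%) and 4 of Th9 and Th2 alone (2.0%). None was of Th2 and Th17 alone (1.55%) or of Th9 and Th17 alone (0.296%). With a library left out, the rule for its subset rests on the remaining library. The rise in the counts that follow comes with that easier rule and does not measure dependence on a library. Those of Th9 alone came to 17 without Th9 replicate 1 and 10 without Th9 replicate 3, those of Th2 alone to 12 without either Th2 library, and those of Th9 and Th2 alone to 9 without Th17 replicate 1.

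Of the 4 regions of Th9 and Th2 alone, 3 lay in introns of Runx2. The strongest, at chr17:44611802-44612917, lay 202.4 kb from the 5′ end of the gene. Its fold enrichment was 3.45 and 3.46 in Th9 and 4.98 and 6.04 in Th2, at percentiles 77.6 and 75.8 and 89.7 and 89.7. The next, at chr17:44765880-44767654 and 48.0 kb from the 5′ end, had fold enrichments of 4.55 and 3.04 in Th9 and 4.49 and 4.51 in Th2. Neither Th17 list held a peak there, although those lists reached down to folds of 1.76 and 1.71. The other region of this kind, at the promoter of Nol3 in the Cbfb window, stood at percentiles 26.8 to 42.3.

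The reverse pattern was seen 259.0 kb from the 5′ end of Runx2, at chr17:44555101-44556396. Both Th17 libraries called it, at folds of 3.77 and 2.93 and percentiles 82.9 and 73.2, and no Th9 or Th2 library did. The other Th17 regions were weaker. A Runx2 intronic region at chr17:44661661-44662288 had folds of 1.93 and 1.89, which lie below the lowest fold of Th9 replicate 1. In Runx1, the regions at chr16:92783359-92784084 and chr16:92641158-92641397 stood at percentiles 0.344 and 50.4 and at 35.2 and 2.78. The 1 subset region of Runx3, at chr4:135074723-135074997 and 45.8 kb upstream, stood at 26.6 and 16.2 in Th17.

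The Th2 regions held intermediate ranks. In Runx1, chr16:92906340-92906766, 80.4 kb upstream, stood at 67.7 and 63.8, and the intronic chr16:92710244-92710550 at 67.3 and 60.6. In Runx2, chr17:44772767-44773319 stood at 60.9 and 58.1 and chr17:44875793-44876091, in an intron of Supt3, at 61.8 and 41.9. Of the Th9 regions, chr8:105249625-105250371 near Cbfb, in an exon of D230025D16Rik, stood at 74.2 and 60.6, the Runx2 intronic chr17:44749011-44749334 at 17.6 and 54.4 and chr16:92873111-92873550 upstream of Runx1 at 26.0 and 40.5.

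Regions called in a single library made up 37 of the 150 (24.7%), against 37.2% of all regions. Of the 11 around Runx3, 8 were called in Th9 replicate 3 alone, at a median percentile of 13.7.

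**Figure D3:**
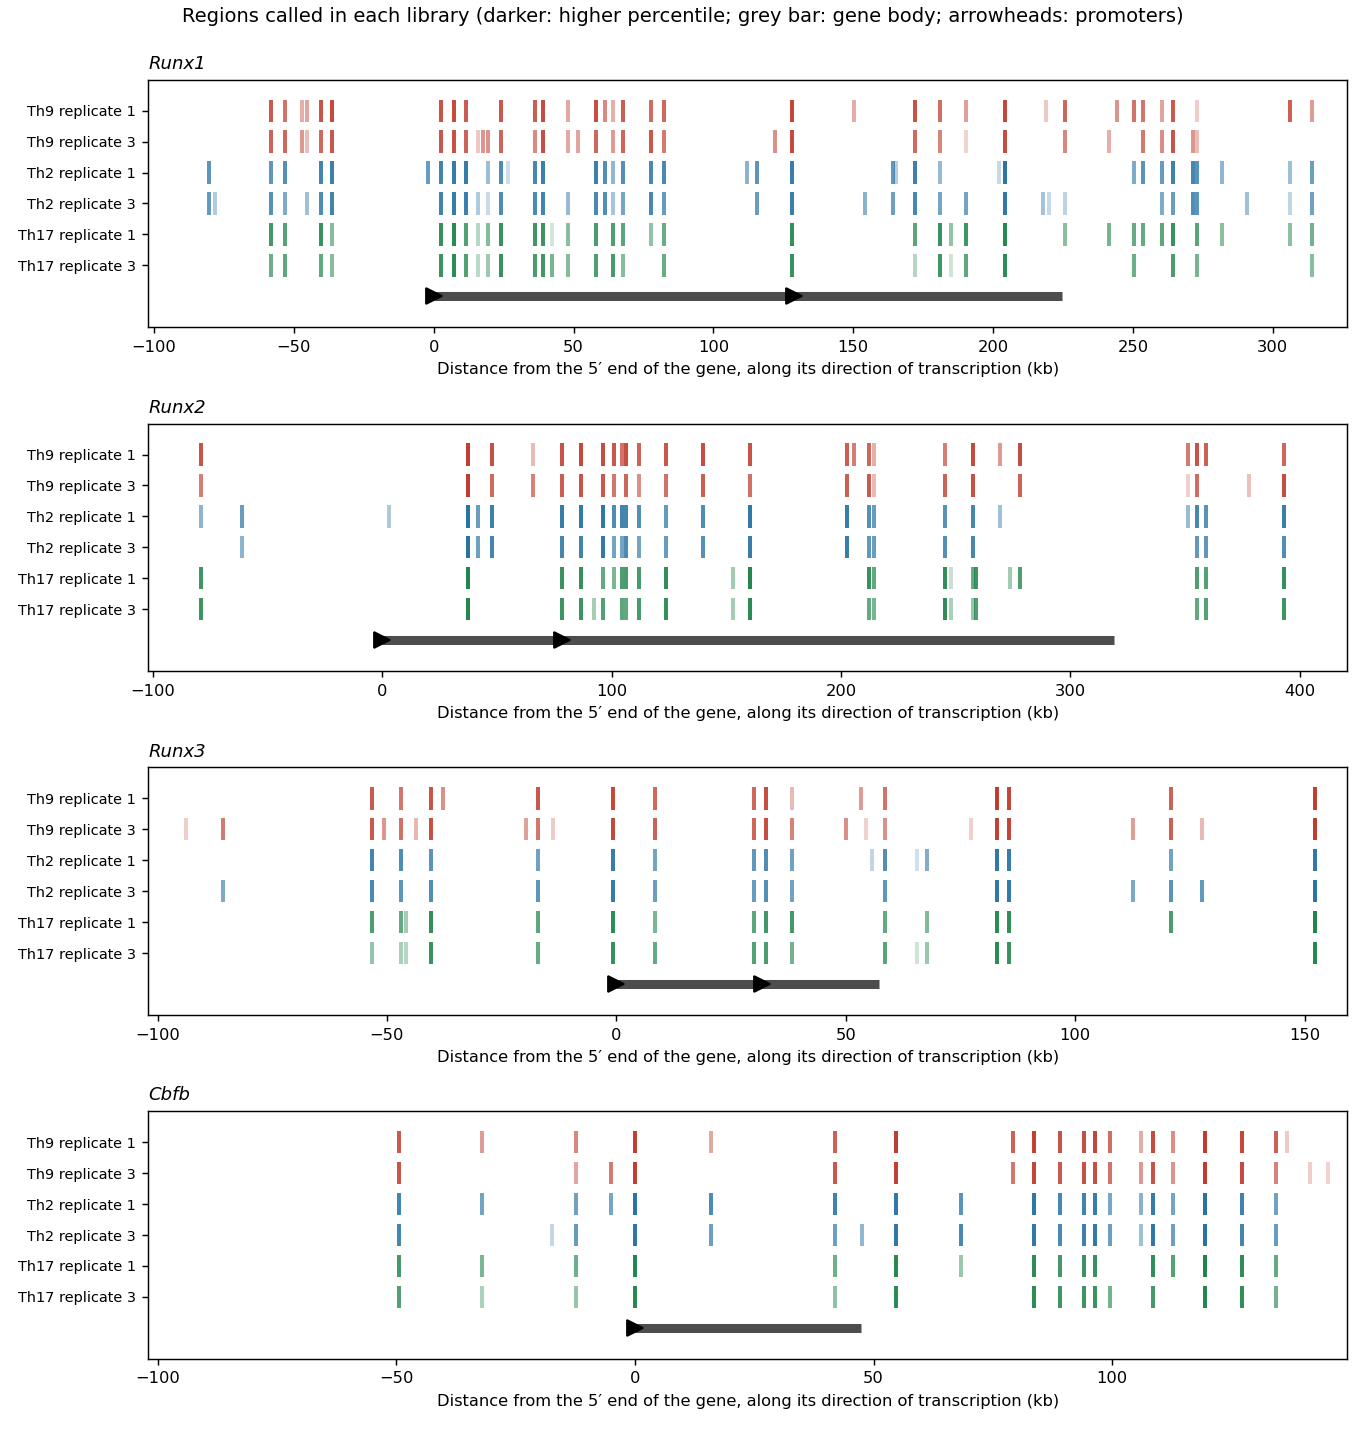
Regions called in each library along the 4 genes, by distance in kb from the 5′ end of the gene in its direction of transcription. Each tick is a region in 1 library, darker for a higher percentile, the grey bar is the gene body and arrowheads mark promoters. In Runx2 no tick stands at the distal promoter, the nearest being 1 of Th2 replicate 1 that begins 2801 bp away, and 3 intronic columns between 48.0 and 202.4 kb hold ticks in the Th9 and Th2 rows with none in the Th17 rows.

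The 60 regions called in all 6 libraries were compared between subsets with limma, on quantile-normalised log2 fold enrichment fitted over all 50493 such regions. Of the 60, 12 differed in at least 1 contrast (20.0%, against 11.6% of all regions tested). They comprised 6 of 20 around Runx1, 5 of 14 around Runx2, 1 of 13 around Runx3 and 0 of 13 around Cbfb. Up to 3 of each gene, those with the smallest p, are described in full below. The other called Runx1 regions were highest in Th2, at chr16:92552911-92553427, chr16:92652618-92655818 and chr16:92813442-92815557. The other called Runx2 regions were intronic and highest in Th17. At chr17:44568811-44570045, Th9 was lower than Th17 by 1.06 (limma, adjusted p = 0.00933) and Th2 by 0.997 (limma, adjusted p = 0.0101). At chr17:44690366-44691395, Th9 was lower than Th17 by 0.72 (limma, adjusted p = 0.0335) and Th2 by 1.04 (limma, adjusted p = 0.00278). For Cbfb, limma gave 2 regions at an unadjusted p under 0.05 for Th9 against Th2, 1 for Th9 against Th17 and 2 for Th2 against Th17.

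For Th9 against Th2, 0 of the 60 regions were higher in Th9 (1.01% of all tested) and 2 were higher in Th2 (2.18%), while limma gave 13 at an unadjusted p under 0.05 in either direction. The median difference, Th9 minus Th2, was 0.09 over the 60 and 0.02 over all. With median centring in place of quantile normalisation, 1054 of 2023 calls over all regions were higher in Th9, against 511 of 1611 here, and 0 of the 60 regions were called. The number called was also 0 with any single library omitted.

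For Th9 against Th17, 2 of the 60 were higher in Th9 (3.11%) and 5 were higher in Th17 (2.90%), with a median difference of 0.07 against 0.00 over all. Without Th17 replicate 3 the count fell from 7 to 2, and without Th9 replicate 1 or without Th17 replicate 1 it fell to 3.

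For Th2 against Th17, 5 of the 60 were higher in Th2 (5.04%) and 5 were higher in Th17 (2.40%), with a median difference of 0.00 against -0.03 over all. Without Th17 replicate 3 the count fell from 10 to 3, without Th2 replicate 1 to 5 and without Th17 replicate 1 to 6. The 3 contrasts share libraries and are not independent of each other.

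The largest difference of the Th2 and Th17 contrast lay in an intron of Runx2, at chr17:44717795-44719031, 96.4 kb from the 5′ end. Its fold enrichment was 4.92 and 4.11 for Th9, 6.60 and 7.31 for Th2 and 2.45 and 2.84 for Th17. The 3 subsets did not overlap, with Th2 highest and Th17 lowest. On the normalised log2 scale Th2 exceeded Th17 by 1.28 ± 0.19 (SE), or 2.43-fold (limma, adjusted p = 0.000564). This call held under all 15 alternatives in which the region could be tested. Th9 lay between, 0.67 below Th2 (limma, adjusted p = 0.0682) and 0.61 above Th17 (limma, adjusted p = 0.0700).

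A second Runx2 intronic region, at chr17:44654038-44655195 and 160.2 kb from the 5′ end, was lowest in Th9. Its fold enrichment was 4.28 and 2.86 for Th9, 6.10 and 6.08 for Th2 and 9.43 and 6.24 for Th17. Th9 was lower than Th17 by 1.29 ± 0.20 (SE), so that Th17 was 2.44-fold higher (limma, adjusted p = 0.00124), and this call held under all 14 alternatives that tested it. Th9 was also lower than Th2 by 0.80 ± 0.20 (limma, adjusted p = 0.0381), a call that was lost with any single library omitted (adjusted p of 0.0520 to 0.221).

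The third, at chr17:44557090-44557673 and 257.4 kb from the 5′ end, was highest in Th9. Its fold enrichment was 5.37 and 4.98 for Th9, 3.63 and 4.32 for Th2 and 2.41 and 1.97 for Th17. Th9 exceeded Th2 by 0.41 ± 0.19 (SE), which did not pass the test (limma, adjusted p = 0.263). Th9 exceeded Th17 by 1.11 ± 0.19 (SE; limma, adjusted p = 0.00263), or 0.0588 without Th17 replicate 3. Th2 exceeded Th17 by 0.70 ± 0.19 (limma, adjusted p = 0.0336), a call lost when any of the Th2 or Th17 libraries was left out (adjusted p of 0.0729 to 0.322). It lies 693 bp from the Runx2 region that was called in Th17 alone, so neighbouring stretches of the gene ranked the subsets differently.

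Around Runx1 the largest difference lay 36.2 kb upstream, at chr16:92861681-92862967, over the start of the gene model Gm49723. Its fold enrichment was 5.60 and 4.19 for Th9, 4.42 and 4.75 for Th2 and 2.08 and 2.08 for Th17. Th17 was lowest and did not overlap the others. Th9 exceeded Th17 by 1.10 ± 0.19 (SE; limma, adjusted p = 0.00278), or 0.0521 without Th17 replicate 1. Th2 exceeded Th17 by 0.97 ± 0.19 (limma, adjusted p = 0.00436), or 0.0619 and 0.0516 without Th17 replicates 1 and 3.

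A pair of Runx1 intronic regions ran the other way and were highest in Th17. At chr16:92644558-92645587, 181.1 kb from the 5′ end, fold enrichment was 2.84 and 2.45 for Th9, 2.06 and 2.51 for Th2 and 4.21 and 3.60 for Th17. Th2 was lower than Th17 by 0.93 ± 0.18 (SE; limma, adjusted p = 0.00376, or 0.0607 without Th2 replicate 1). Th9 was lower than Th17 by 0.75 ± 0.18 (limma, adjusted p = 0.0188), a call lost when any Th9 or Th17 library was left out (adjusted p of 0.0797 to 0.111).

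At chr16:92761514-92762600, 64.1 kb from the 5′ end, fold enrichment was 2.27 and 2.2 for Th9, 2.07 and 1.98 for Th2 and 2.96 and 3.22 for Th17. Th2 was lower than Th17 by 0.72 ± 0.15 (SE; limma, adjusted p = 0.00657, or 0.0700 without Th17 replicate 3). Th9 was lower than Th17 by 0.67 ± 0.15 (limma, adjusted p = 0.0136), a call lost without Th9 replicate 1 (adjusted p = 0.121) or Th17 replicate 3 (adjusted p = 0.108).

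The called region of Runx3 lay 40.3 kb upstream, in intergenic DNA at chr4:135079688-135080962. Its fold enrichment was 4.02 and 4.97 for Th9, 2.76 and 3.55 for Th2 and 4.90 and 4.13 for Th17, with Th2 lowest. Th2 was lower than Th17 by 0.75 ± 0.20 (SE; limma, adjusted p = 0.0339). With normal scores of the percentile as the tested value the adjusted p was 0.159 (limma). With 50% of the region required to be covered it was 0.0737 (limma). The call was lost without Th2 replicate 1, Th17 replicate 1 or Th17 replicate 3 (adjusted p of 0.187 to 0.204).

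**Figure D4:**
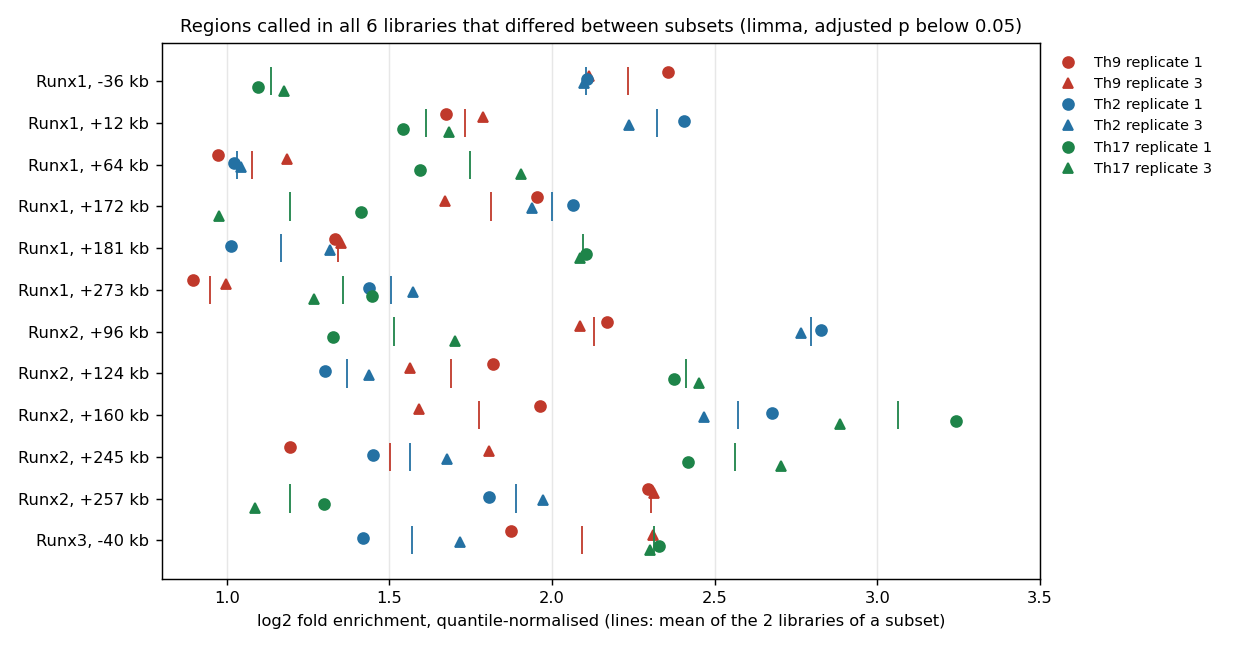
Quantile-normalised log2 fold enrichment in each library at the 12 regions that differed in at least 1 contrast, labelled by gene and distance from its 5′ end. Points are libraries (circles, replicate 1; triangles, replicate 3) and lines are means of the 2 libraries of a subset. In the Runx2 row at +96 kb the Th2 points lie right of all others, and in the row at +160 kb the Th9 points lie left of all others.

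The strongest regions called in all 6 libraries that were no promoter of the family lay at neighbouring genes in 3 of the 4 windows. In the Runx2 window it was chr17:44776588-44777980, over a start of Supt3 in a Runx2 intron, at percentiles of 97.1 to 98.9. In the Runx3 window it was chr4:135271869-135273759 at Clic4, at 94.8 to 99.0. In the Cbfb window it was chr8:105288316-105292054, at the promoters of the gene models 4931428F04Rik and Gm20163, at 97.7 to 99.2. It also overlaps an exon of Exoc3l. In the Runx1 window it lay in an intron of Runx1 itself, at chr16:92620516-92623028, at 91.5 and 88.4 for Th9, 96.5 and 94.8 for Th2 and 95.6 and 92.2 for Th17. There Th9 was lower than Th2 by 0.55 ± 0.17 (SE; limma, adjusted p = 0.0942), which did not pass the test.

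Sequence is given for 3 of the Runx2 intronic regions described above, as the 300 bases around the midpoint of each region on the plus strand. Capitals mark a RUNX word as above, the AP-1 word TGANTCA, a STAT word (TTC and GAA spaced by any 3 bases) or the GATA word AGATAA, each searched on both strands. No word contains another. The stretches are chr17:44718263-44718562 (highest in Th2), chr17:44654467-44654766 (lowest in Th9) and chr17:44612210-44612509 (called in Th9 and Th2 alone).
Runx2 at 96.4 kb: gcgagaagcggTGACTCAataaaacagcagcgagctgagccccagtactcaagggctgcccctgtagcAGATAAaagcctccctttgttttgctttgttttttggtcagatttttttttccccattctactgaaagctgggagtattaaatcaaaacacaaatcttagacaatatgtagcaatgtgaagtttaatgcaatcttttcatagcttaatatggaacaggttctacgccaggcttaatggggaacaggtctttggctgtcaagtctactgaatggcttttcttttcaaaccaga
Runx2 at 160.2 kb: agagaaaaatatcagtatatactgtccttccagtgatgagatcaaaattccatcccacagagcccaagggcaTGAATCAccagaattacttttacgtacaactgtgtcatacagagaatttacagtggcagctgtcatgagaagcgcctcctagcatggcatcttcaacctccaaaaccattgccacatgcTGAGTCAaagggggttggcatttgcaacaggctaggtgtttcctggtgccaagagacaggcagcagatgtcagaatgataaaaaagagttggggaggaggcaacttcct
Runx2 at 202.4 kb: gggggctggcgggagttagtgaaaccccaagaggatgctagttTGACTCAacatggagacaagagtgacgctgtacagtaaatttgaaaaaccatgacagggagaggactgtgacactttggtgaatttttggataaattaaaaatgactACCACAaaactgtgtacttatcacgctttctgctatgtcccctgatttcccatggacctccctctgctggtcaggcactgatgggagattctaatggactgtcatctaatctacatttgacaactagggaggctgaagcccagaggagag

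The first stretch held 1 AP-1 and 1 GATA match, the second 2 AP-1 matches and the third 1 AP-1 and 1 RUNX match. Over all regions, the same length at the midpoint held a RUNX match in 25.3%, an AP-1 match in 11.7%, a STAT match in 8.64% and a GATA match in 12.3%. In the 4 windows the shares were 34.7%, 17.3%, 11.3% and 13.3% of the 150 regions. The RUNX share counts the CA-rich Th9 regions in Runx2 and upstream of Runx1, which held 2 and 4 matches within repeated sequence. The 3 stretches were chosen after their matches had been seen and are the 3 of the 11 named Runx2 regions that held an AP-1 match. Over those 11, a RUNX match was found in 2, a STAT match in 1 and a GATA match in 4, and the region at 257.4 kb held the STAT match and 1 GATA match. These counts describe letters only.

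Genes that work with RUNX proteins, or are controlled or bound by them, were taken from lists, by promoter calls alone. Of 20 cofactors and partners, 20 had a promoter peak in all 6 libraries, beside 58.7% of all protein-coding genes, at percentiles from 32.9 to 99.8. The Groucho corepressor genes Tle1 and Tle4 ranked at 99.1 to 99.8 and 97.8 to 99.6, and Ets1, a partner that binds DNA beside RUNX1, at 89.5 to 97.0. Tle2 was lowest, at 32.9 to 71.8.

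The second list held 20 genes controlled or bound by RUNX proteins in T cells. Of these, 9 had a promoter peak in all 6 libraries, beside the same 58.7%. In 3 (Cd8a, Ifng and Spi1) no library had one, beside 28.0% of all protein-coding genes. Zbtb7b, which encodes the CD4 lineage factor ThPOK, stood at 78.3 to 86.5. Il4 was called at 89.5 and 92.3 in Th9 and at 87.8 and 88.3 in Th2 and in neither Th17 library. Itgae, which encodes the integrin CD103, was called in the Th9 libraries alone, at 33.6 and 23.5. Il17a was called at 81.4 and 69.5 in Th17 and at 36.1 in Th2 replicate 3. No test was made on single promoters of these lists.

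The promoters of other genes nearest to each family promoter over the 6 libraries, by Euclidean distance in percentile points, were Fam168a (0.517) and Egln2 (0.908) for Cbfb and Nt5c (1.31) and Echs1 (1.49) for Runx1 proximal. For Runx1 distal they were Trim30c (2.71) and Cfap206 (3.24), and for Runx2 proximal Setbp1 (4.37) and Myo1h (4.78). For Runx3 distal they were Il3ra (1.74) and Lin7b (1.81), and for Runx3 proximal Ybx2 (3.75) and Tbl3 (3.86). The Runx2 distal promoter had no peak and so no nearest promoter. Of the 19819 protein-coding genes searched, 5040 had no promoter peak. That count is of whole genes, and Runx2 as a gene had a peak at its proximal promoter.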

How the data were processed

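ATAC-seq was performed by the authors on nuclei of Th9, Th2 and Th17 cells, using Tn5 and paired-end sequencing. Per the methods and the submitters' processing notes, reads were trimmed with Trim Galore 0.4.3, aligned to mm10 with Bowtie2 and freed of duplicates with Picard, reads of low mapping quality or from mitochondria were dropped, and MACS2 2.1.0 called broad peaks for each library alone, with no input and no local background. Without a local background, repeated sequence can score as a peak. The deposited lists give a display score (unused), the fold enrichment (a linear ratio) and the −log10 of p and q, as the authors deposited them. No read counts were used.

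Chromosome lengths were checked against GRCm38.p6, and 0 peaks lay past an end. Genes came from GENCODE M21 basic, and promoters were split by the first residues of the coding sequence. The sequence of 1 promoter is not reported here. The value of a region was that of its strongest peak. For regions called in all 6 libraries, log2 fold enrichment was quantile-normalised and tested with limma 3.58.1 (R 4.3.3, trended variance, all 6 libraries in the fit), and p-values were adjusted by Benjamini-Hochberg over all 50493 regions, with 0.05 as the threshold. A region had to be called everywhere to be tested, which leaves out those that differ most. The script was tested on simulated data.

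Named regions were, for each gene, up to 3 with the smallest p among those past the threshold, up to 2 of each pattern of calls with the highest mean percentile, and the highest-ranked region in all 6 lists that was no family promoter. Gene models named Gm with a digit or ending in Rik were left out of the likeness search. The members, lists and tests were chosen with earlier results of these data known. Alternatives were other filters on −log10 q and fold, lists of equal length, 50% of a region covered, bins of 1 kb, flanks of 10 kb, other normalisations, a replicate block and each library left out. Analysis used Python 3.11.15, numpy 2.4.6, pandas 2.3.3 and pysam 0.24.0.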

Additional observations from a re-analysis of the deposited data

How the results depend on the processing

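The 60 regions called in all 6 libraries became 34 with a −log10 q of at least 5, 14 with a fold of at least 4, 35 with 50% of a region covered, 35 with flanks of 10 kb and 113 as bins of 1 kb, and 61 to 66 with a library left out. The 6 called promoters stayed 6 except at a fold of at least 4, where 3 were called in all 6 libraries. Regions of Th9 alone (3) numbered 0 with −log10 q of at least 5, 1 with a fold of at least 4, with flanks of 10 kb or with lists of equal length, and 5 with a fold of at least 2.2. Those of Th2 alone (5) numbered 2 with a fold of at least 4, 3 with flanks of 10 kb and 11 as bins. Those of Th17 alone (6) numbered 3 with −log10 q of at least 5 or a fold of at least 4 and 1 with a fold of at least 2.2. Those of Th9 and Th2 alone (4) numbered 13 as bins. Those of Th2 and Th17 alone (0) numbered 2 with −log10 q of at least 5 or as bins, and those of Th9 and Th17 alone (0) numbered 1 and 2 with folds of at least 4 and 2.2. With a library left out, the 6 patterns ranged from 3 to 17, 5 to 12, 6 to 7, 5 to 9, 0 to 3 and 0 to 2. The rule then needs only the remaining library of that subset, which itself raises counts.

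Of the limma calls, Th9 against Th2 (2) gave 0 with a fold of at least 4, 50% covered, bins, median centring, no variance trend, normal scores of the percentile or any library left out, and 1 with flanks of 10 kb, a fold of at least 2.2 or lists of equal length. Th9 against Th17 (7) gave 1 with −log10 q of at least 5, 0 with a fold of at least 4, 3 with a fold of at least 2.2, with 50% covered or with normal scores, and 2 to 9 with a library left out. Th2 against Th17 (10) gave 3, 0, 5, 4 and 2 under those settings in the same order, and 3 to 10 with a library left out. Fewer regions of the windows could be tested under the stricter filters, and for the other settings the cause was not tested. Median centring set the median of all regions at 0.12 for Th9 minus Th2 and -0.10 for Th2 minus Th17. No difference at a region picked by the naming rule above changed sign. With normal scores, the Runx3 call and all calls at the pair of Runx1 intronic regions highest in Th17 were lost. In Runx2, normal scores also lost the call of Th9 against Th2 at 160.2 kb and that of Th2 against Th17 at 257.4 kb. The call of Th9 against Th2 at 160.2 kb was lost as well with median centring or no variance trend (limma, adjusted p = 0.0511 and 0.0518).

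The labels do not say whether the replicate numbers mark shared batches, and the libraries were not taken as paired. The deviations of replicates 1 and 3 correlated at 0.207 for Th9 and Th2, 0.00984 for Th9 and Th17 and 0.000962 for Th2 and Th17. Only the first was over 0.1, which is at most a hint from the data and not the design. With a replicate block, 2, 7 and 10 regions of the windows were called, the same counts as without it, and over all regions the calls rose from 1611 to 2205, from 3034 to 3506 and from 3756 to 4300. The lists hold no read counts, and no region under the lowest fold of a list could be seen.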
